A study of Drosophila melanogaster with 6 samples.

Results

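The mitochondrial ribosomal protein genes of *Drosophila melanogaster* are described here in testes of *Pof* mutant and wild type males. They were taken as the genes whose array symbol starts with mRpL or mRpS followed by a number, from probe sets assigned to 1 gene. The rule found 69 genes on 71 probe sets, out of 11983 genes on all 13647 probe sets assigned in this way. Of these, 44 encode proteins named for the large subunit (mRpL) and 25 proteins named for the small subunit (mRpS), and the rule reads symbols only. Testes were dissected from *Pof* mutant males homozygous for *Pof* D119 (*y1 w67c23; PofD119/PofD119*) and from wild type males (*y1 w67c23*), so both stocks carry the same yellow and white markers on the X chromosome. The males were 0 to 24 h old, each biological replicate pooled 60 testes, and 3 replicates of each genotype were hybridised to Affymetrix *Drosophila* arrays. POF is a protein that binds chromosome 4, and the comparison asks what its loss changes in the testis.

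Mitochondria keep a ribosome of their own, which translates the few proteins encoded in mitochondrial DNA, nearly all of them subunits of the respiratory chain and the ATP synthase. Its RNAs come from mitochondrial DNA, while its proteins are encoded in the nucleus, made in the cytosol and imported. Many of them descend from bacterial ribosomal proteins and share their numbers, whereas most, but not all, proteins with higher numbers have no bacterial counterpart. The split by number used below follows names and not homology. In the fly testis, mitochondria fuse after meiosis into the Nebenkern and then elongate along the growing sperm tail.

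The values are log2 levels from robust multi-array analysis (RMA), which brings all arrays to a common distribution, and the array medians lay between 5.78 and 5.88. A minimum of 6 on the mean over the wild type arrays left 7696 genes. The mutant arrays were brought to the wild type average by constants of -0.017 (replicate 1), 0.064 (replicate 2) and 0.15 (replicate 3), which the mutant levels given here include unless called deposited. *Pof* itself was at 10.46 ± 0.10 in *Pof* mutant and 12.98 ± 0.085 in wild type testes (SD, n = 3 each), or 17.4% of the wild type level (limma adjusted p = 1.5e-04). Replicate 2 of both genotypes stood apart along the first principal component, with 58.9% of the variance. Of 9 germline markers, 8 passed the minimum and *twe* did not, and 2 of the 8, the sperm genes *dj* and *Mst84Db*, fell in the mutant. The mean deposited level of all 9 was 9.95 to 10.18 on the mutant and 10.24 to 10.38 on the wild type arrays. The 10 listed symbols of the accessory gland, a neighbouring organ, gave 9 genes, and none passed the test. Their mean deposited levels were 13.33 to 13.54 on the mutant and 13.18 to 13.45 on the wild type arrays. Of 5 fat body genes 2 were measured, *Fbp1* and *Lsp2*, and both fell, with mean deposited levels of 5.78 to 6.20 on the mutant and 7.27 to 8.22 on the wild type arrays. Of 9 muscle genes 5 were measured, with mean deposited levels of 9.43 to 9.79 on the mutant and 9.37 to 10.31 on the wild type arrays, and none passed. The part of these differences in the results was not tested. In such bulk RNA, fewer cells of a type and less RNA per cell cannot be told apart.

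All 69 mitochondrial ribosomal protein genes had a wild type mean above 6, so none was lost to the minimum. One of them rose in *Pof* mutant testes. This was *mRpS6*, a protein of the small subunit, at 177% of its wild type level. No member fell, and 68 did not pass the test (limma with Benjamini-Hochberg adjustment over all 7696 genes). Over all genes, 2.47% were higher and 2.22% lower, 4.69% together, against 1.45% of the members, or 1 of 69. The changes of the other 68 lay between -0.40 (*mRpL1*) and 0.25 (*mRpS21*) on the log2 scale, with adjusted p-values between 0.195 and 0.985. Their 95% intervals together spanned -0.87 to 0.59, or 54.8% to 151% of wild type, and 51 members had an interval wholly within 0.5 of zero. A halving or a doubling was thus outside the interval of each of these 68 genes, while smaller shifts lay within these intervals, whose width 3 arrays of each genotype set. The changes of 61 members, 88.4%, were within 0.25 of zero, against 70.5% of all genes.

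**Figure D1:**
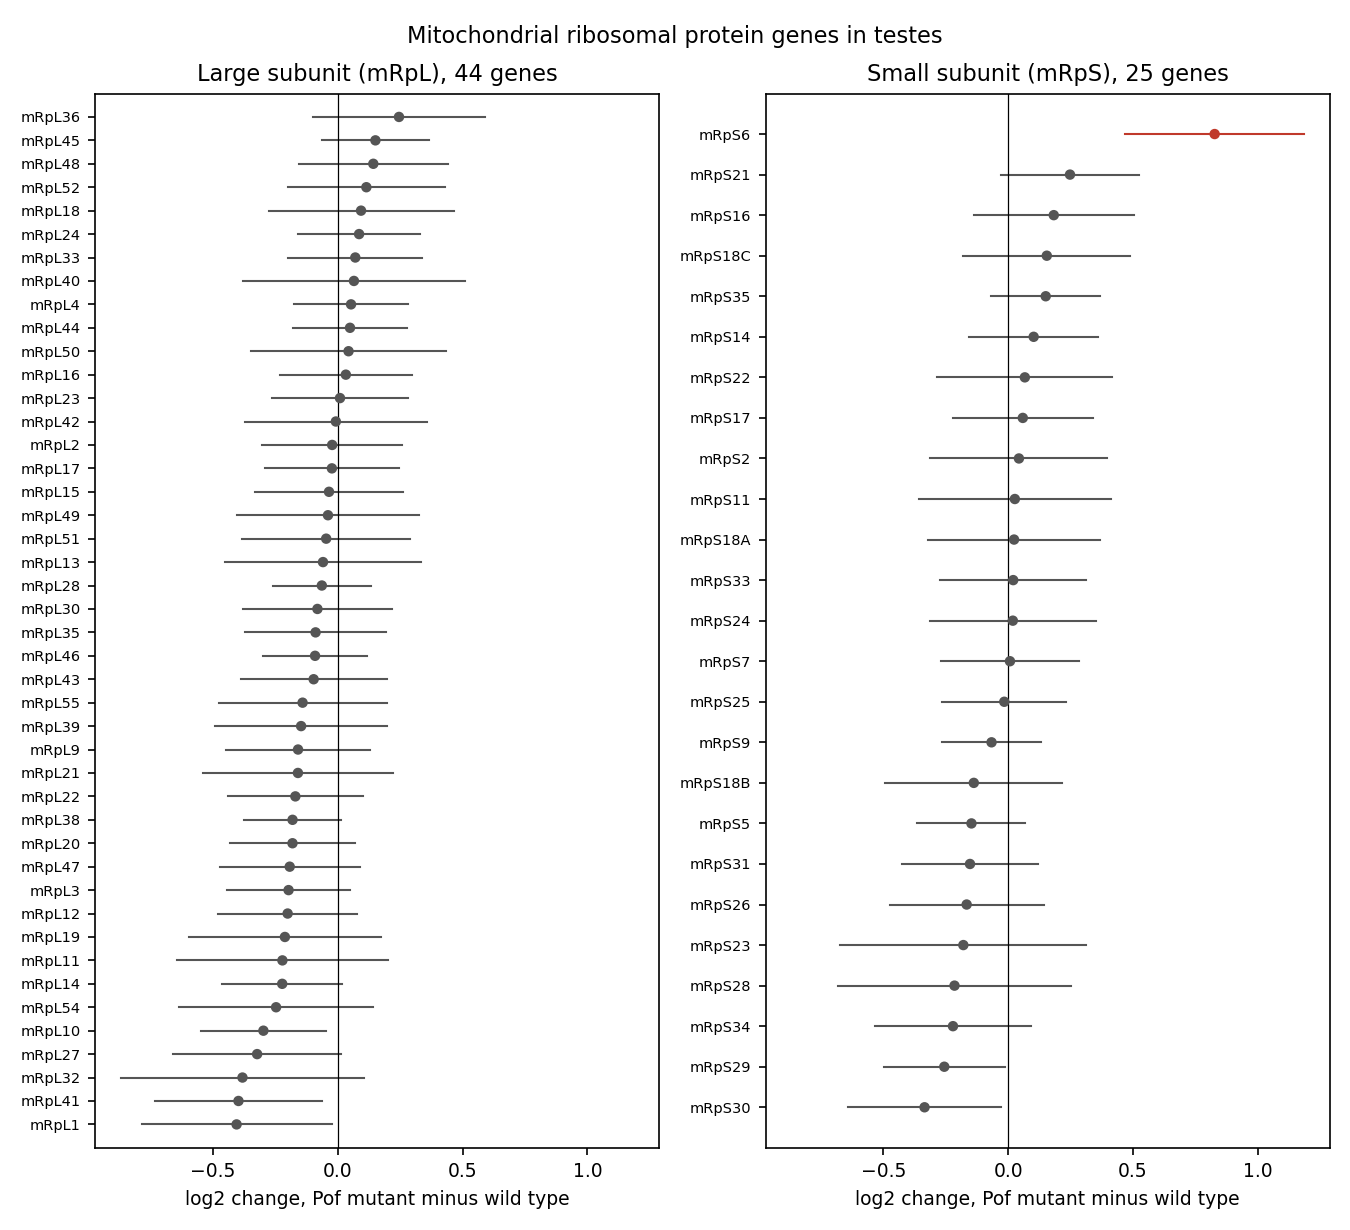
Log2 change (Pof mutant minus wild type, horizontal axis) of each of the 44 large subunit and 25 small subunit genes, ordered by size. Points are the limma estimates and lines their 95% intervals (3 arrays per genotype), with the gene past the adjusted threshold of 0.05 in red. *mRpS6* sits at 0.83, apart from the next highest, *mRpS21* at 0.25.

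*mRpS6* (Entrez Gene 38535, on arm 3L) belongs to the proteins of bacterial type. In bacteria, S6 binds next to S18 on the platform of the small subunit. Its levels were 9.43, 9.64 and 9.41 on the 3 *Pof* mutant arrays, against 8.47, 8.95 and 8.57 on the wild type arrays. Every mutant array lay above every wild type array, and the lowest mutant array exceeded wild type replicate 2, the highest of its group. The log2 change was 0.83 (standard error 0.15, 95% interval 0.47 to 1.18, limma adjusted p = 0.031), a 1.77-fold higher level. Mutant minus wild type differences between arrays with the same replicate number were 0.96, 0.69 and 0.84. A fit that blocked on replicate number gave an adjusted p of 0.0078. The size of the change varied little between settings, from 0.73 to 0.98, but its side of the threshold did not hold in all of them. Without any one of *Pof* mutant replicates 1, 2 and 3 the adjusted p was 0.105, 0.095 and 0.081, and it was 0.138 without wild type replicate 1 and 0.109 without wild type replicate 3. It stayed past the threshold without wild type replicate 2 (adjusted p = 0.011), and was 0.055 when no constant was added.

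The other small subunit proteins whose bacterial relatives lie on the same platform, a group put together after the value of *mRpS6* was seen, did not pass the test. *mRpS21*, the second highest member, had levels of 10.41, 10.69 and 10.71 in *Pof* mutant testes, against 10.34, 10.46 and 10.27 in wild type testes. The genotypes overlapped, and its change was 0.25 (standard error 0.12, adjusted p = 0.321). The fly has 3 genes of the S18 family. *mRpS18C* had a change of 0.15, *mRpS18A*, whose mammalian relative is built into the large subunit, one of 0.024, and *mRpS18B* one of -0.14, with adjusted p-values between 0.636 and 0.949. *mRpS11* was measured by 2 probe sets, with changes of 0.041 and 0.011, and *bonsai*, the fly relative of S15, had a change of -0.12.

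**Figure D2:**
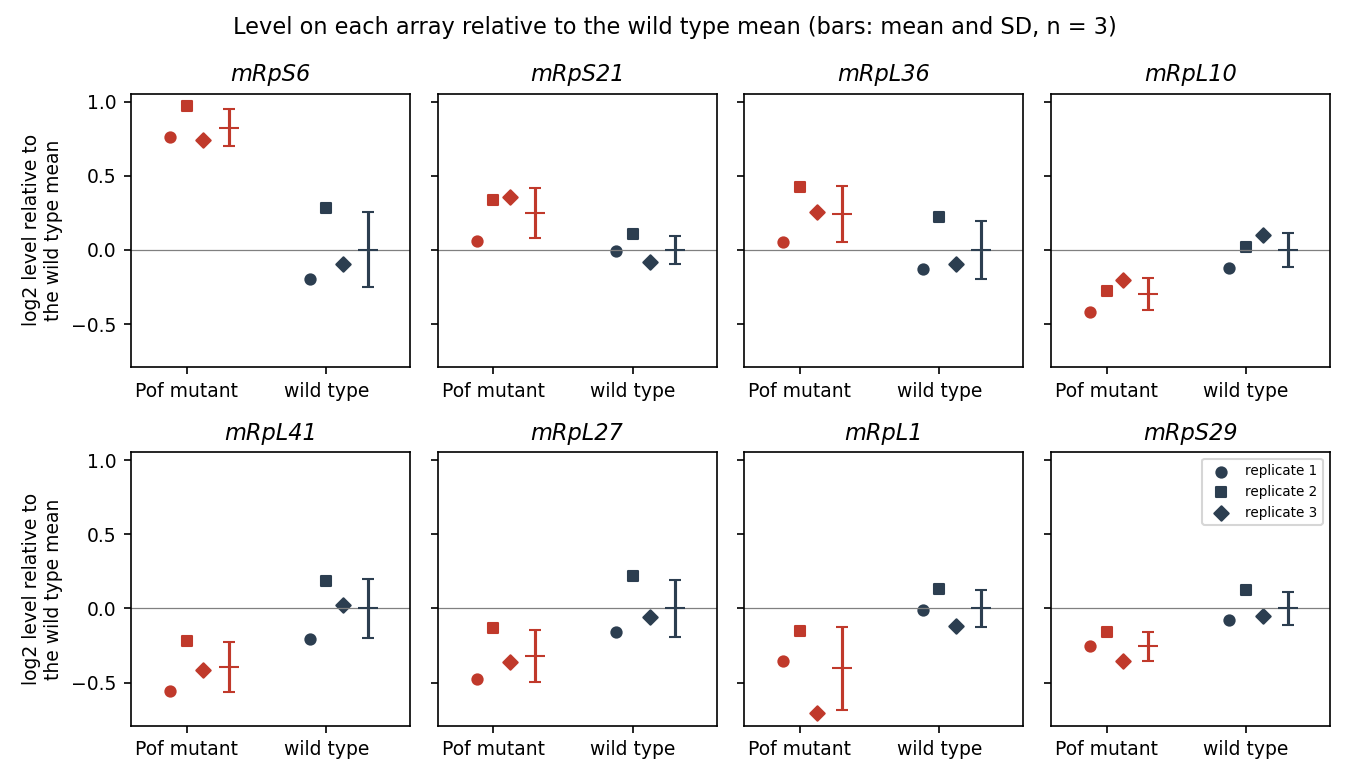
Log2 level on each array minus the wild type mean of the gene (vertical axis) for 8 members, with Pof mutant arrays in red and wild type arrays in dark blue, one symbol per replicate number, and the mean and SD of 3 arrays beside them. The 3 mutant arrays of *mRpS6* lie above all wild type arrays, those of *mRpL10*, *mRpL41*, *mRpL1* and *mRpS29* lie below them, and those of *mRpS21*, *mRpL36* and *mRpL27* overlap with them.

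Among the large subunit genes, *mRpL1* had the lowest value, followed by *mRpL41*, *mRpL32* and *mRpL27*, which are described further below. *mRpL1*, whose bacterial relative forms the mobile stalk where spent tRNA leaves the ribosome, had levels of 7.05, 7.25 and 6.69 on the *Pof* mutant arrays, against 7.39, 7.53 and 7.28 on the wild type arrays. Mutant replicate 3 was the lowest, and the genotypes did not overlap. The value of -0.40 (standard error 0.16) did not pass the test (adjusted p = 0.241, and 0.052 with replicate blocked).

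The opposite stalk recruits the GTPases of translation. *mRpL10*, its base in bacteria, was at 8.64, 8.78 and 8.86 in *Pof* mutant testes, against 8.94, 9.08 and 9.16 in wild type testes. The highest mutant array lay below the lowest wild type array, and same-numbered arrays differed by -0.30, -0.29 and -0.30. The change of -0.30 (standard error 0.10) had an adjusted p of 0.195, the lowest of the 68, and of 0.052 under the replicate block. *mRpL12*, the protein of the flexible arm, had a change of -0.20 and *mRpL11*, which sits beside the stalk, one of -0.22, each lower in all 3 pairs and neither past the test (adjusted p = 0.425 and 0.579).

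*mRpL41* and *mRpL27* were the 2 members called with the replicate block and not without it. *mRpL41*, a protein without a bacterial counterpart, had levels of 8.07, 8.41 and 8.22 on the *Pof* mutant arrays, against 8.42, 8.82 and 8.65 on the wild type arrays. No mutant array reached the lowest wild type array, wild type replicate 1. Its change was -0.40 (standard error 0.14), with an adjusted p of 0.196 without and 0.028 with the replicate block. *mRpL27*, whose bacterial relative reaches into the site of peptide bond formation, had levels of 8.16, 8.51 and 8.28 in the mutant, against 8.48, 8.86 and 8.58 in wild type. Mutant replicate 2 exceeded wild type replicate 1, so the groups overlapped, and the change of -0.32 (standard error 0.14) had an adjusted p of 0.289 without and 0.045 with the block. With the block, 2 members were thus lower and 1, *mRpS6*, higher, while 5.68% of all genes were lower and 5.82% higher.

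Of the other large subunit proteins of the catalytic centre and the exit tunnel, none passed the test. *mRpL2*, at the catalytic centre in bacteria, had a change of -0.022, *mRpL4*, which lines the tunnel, one of 0.054, and *mRpL23*, at the tunnel's exit, one of 0.0093. *mRpL3*, also near the catalytic centre, had a value of -0.20, with mutant arrays at 7.42 to 7.65 and wild type arrays at 7.65 to 7.85, which did not overlap by a margin smaller than the rounding (adjusted p = 0.375). *mRpL45*, which in mammals ties the ribosome to the inner mitochondrial membrane, went the other way, at 7.39, 7.34 and 7.33 on the mutant arrays, against 7.21, 7.09 and 7.29 on the wild type arrays. These groups did not overlap either, and the change of 0.15 (standard error 0.090) did not pass the test (adjusted p = 0.440).

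*mRpL32*, which in yeast and mouse is cut by a mitochondrial protease before it is assembled, had a change of -0.38 and the largest spread among the mutant arrays of any member (SD 0.33, n = 3), with an adjusted p of 0.387. The highest large subunit gene was *mRpL36*, a small protein of bacterial type, with levels of 9.89, 10.26 and 10.09 in *Pof* mutant testes, against 9.70, 10.06 and 9.74 in wild type testes. It was higher in all 3 pairs, by 0.18, 0.21 and 0.35, and did not pass the test (change 0.25, standard error 0.14, adjusted p = 0.433). *mRpL47*, with a number above the bacterial range, was measured by 2 probe sets with changes of -0.25 and -0.14, so both pointed the same way without passing.

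In the small subunit, the lowest values were those of *mRpS30* and *mRpS29*. *mRpS30*, whose mammalian relative was found in the large subunit, had levels of 8.10, 8.25 and 7.82 on the *Pof* mutant arrays, against 8.35, 8.38 and 8.44 on the wild type arrays. The wild type arrays lay close together (SD 0.049, n = 3) and mutant replicate 3 was the lowest. Its change of -0.33 (standard error 0.13) had an adjusted p of 0.228. *mRpS29*, a GTP-binding protein known in humans as DAP3, was at 8.19, 8.29 and 8.09 in the mutant, against 8.37, 8.57 and 8.40 in wild type. These arrays did not overlap, and the change of -0.26 (standard error 0.10) had an adjusted p of 0.246.

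Of the small subunit proteins with well known places in the bacterial ribosome, none of *mRpS2*, *mRpS5*, *mRpS7* and *mRpS9* passed the test. *mRpS7* and *mRpS9*, of the head that holds the tRNAs, had changes of 0.0072 and -0.067. *mRpS5*, near the mRNA entry, had one of -0.15, with mutant arrays at 9.33 to 9.47 and wild type arrays at 9.49 to 9.63, which did not overlap (adjusted p = 0.455). *mRpS2*, on the back of the bacterial subunit, had a value of 0.043, which hid opposite differences between same-numbered arrays, of -0.22, 0.44 and -0.088. *mRpS16*, of bacterial type, had a change of 0.18 (adjusted p = 0.544) and was higher in all 3 pairs.

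Taken as a group, with members that are not replicates and with no test of the list, the 69 genes had a median log2 change of -0.059, or 96.0% of wild type, against 0.024 for all genes. Their quartiles were -0.18 and 0.049, against -0.13 and 0.16. Below zero lay 42 members and above it 27, a share of 60.9% below against 45.5% of all genes. Without the constant 54 members lay below, but the median of all genes was then itself below zero, at -0.041. The median of the members was -0.12 without the constant, -0.11 with one from linear values and -0.054 with one set on the median. It was below that of all genes by 0.083 each time, since a constant moves all genes alike. The difference from all genes was -0.038 without *Pof* mutant replicate 1 or without wild type replicate 2, and -0.12 without *Pof* mutant replicate 2. Without wild type replicate 2 the sign of the median turned (0.024, with 31 members below zero, against 0.062 for all genes). The genotypes did not overlap for 12 members, with the *Pof* mutant arrays the lower ones for 9 (13.0%, against 11.2% of all genes) and the higher ones for 3 (4.35%, against 13.4%). Beside *mRpS6*, *mRpL45* was above in this way, and so was *mRpS35*, a mitochondria-specific protein named for this count, at 8.82 to 8.96 on the mutant and 8.68 to 8.81 on the wild type arrays. Values were lower in all 3 pairs for 27 members (39.1%, against 24.4% of all genes) and higher for 12 (17.4%, against 29.5%). At an unadjusted p under 0.05, limma found 5 members lower and 1 higher, 7.25% and 1.45%, against 8.33% and 10.1% of all genes.

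The median was -0.085 for the 44 large subunit genes, 31 of them below zero, and 0.019 for the 25 small subunit genes, 11 of them below zero. The small subunit median was below zero without the constant (-0.046), with it from linear values (-0.035), with no minimum (-0.024), and without *Pof* mutant replicate 2 (-0.084), wild type replicate 1 (-0.039) or wild type replicate 3 (-0.050). That of the large subunit was 0.0015 without wild type replicate 2. Within the small subunit, the 13 genes with bacterial-type numbers (S21 and below), which include *mRpS6*, had a median of 0.043 and 3 values below zero. The 12 with higher numbers (S22 and above) had a median of -0.16 and 8 below zero. Within the large subunit, the medians were -0.088 over 27 genes with bacterial-type numbers (L36 and below) and -0.046 over 17 with higher numbers (L37 and above). The bacterial-type median of the small subunit turned to -0.022 without the constant, -0.011 with it from linear values, -0.051 without *Pof* mutant replicate 2 and -0.0020 without wild type replicate 1. The median of the higher-numbered large subunit genes turned to 0.023 without *Pof* mutant replicate 1 and 0.053 without wild type replicate 2. Those of the other 2 groups stayed below zero in each setting tried. They lay between -0.25 and -0.034 for the higher-numbered small subunit genes, and between -0.16 and -0.0012 for the bacterial-type large subunit genes. These groups were split by number alone, and the higher-numbered ones can hold proteins with a bacterial counterpart. The difference between these groups was not tested.

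The 69 genes shared a pattern across the replicates. Averaged over the 69 genes and relative to the wild type mean, the *Pof* mutant arrays lay at -0.15, 0.10 and -0.12 and the wild type arrays at -0.092, 0.14 and -0.051. Replicate 2 was thus the highest array in both genotypes, and mutant replicate 2 lay above wild type replicates 1 and 3. Among the mutant arrays, replicate 2 held the highest value of 63 members (91.3%, against 56.9% of all genes), and among the wild type arrays of 59 members (85.5%, against 61.7%). Each mutant array lay below the wild type array of the same number, by less than replicate 2 exceeded the others. The means of other lists of mitochondrial gene expression had the same peak, though single genes such as *scu* did not. Replicate 2 was again the highest array of both genotypes in each list mean. Its means were 0.19 on the mutant and 0.13 on the wild type array for 8 translation factors, 0.030 and 0.11 for 9 genes that charge mitochondrial tRNAs, 0.044 and 0.070 for 12 genes of mitochondrial DNA and RNA, and 0.071 and 0.16 for *tko* and *bonsai*. In the cytosolic ribosomal protein genes and the genes of oxidative phosphorylation, replicate 2 was not the highest. Their means in replicate 2 were 0.011 and 0.028 on the mutant array and -0.047 and -0.010 on the wild type array, and in both groups the highest arrays were those of replicate 3. Without both replicate 2 arrays, a setting chosen after these values were seen, the median change of the 69 genes was -0.041 and *mRpS6* was again the one member called.

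**Figure D3:**
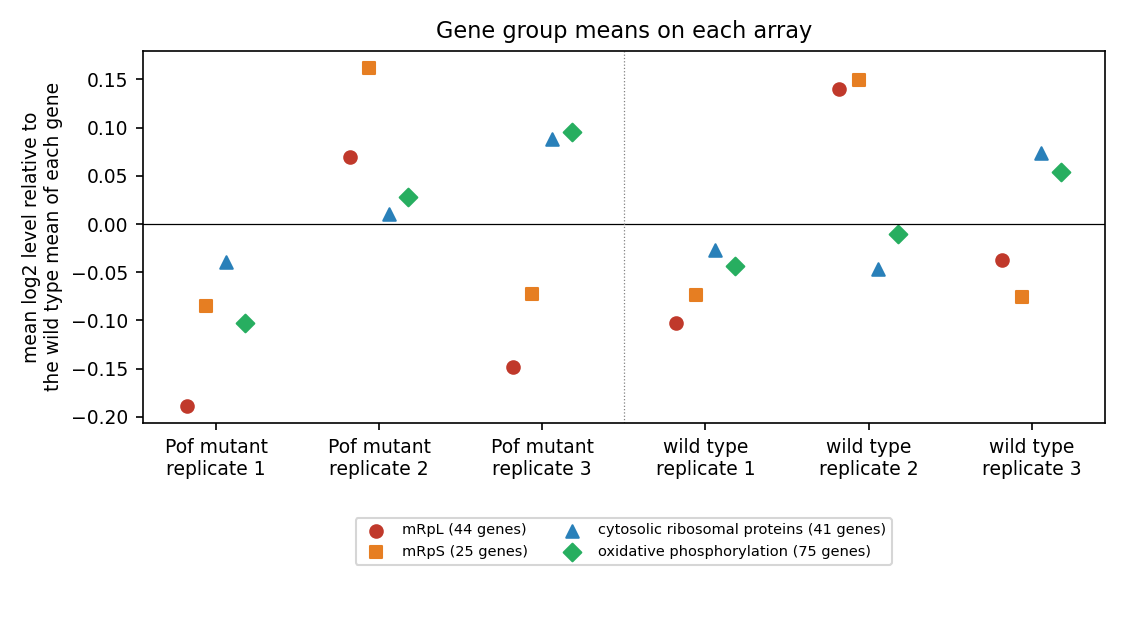
Mean log2 level of 4 gene groups on each array, relative to the wild type mean of each gene (vertical axis), with the 3 Pof mutant arrays left of the 3 wild type arrays. The mRpL and mRpS genes peak on replicate 2 of both genotypes, where the cytosolic ribosomal protein and oxidative phosphorylation genes stay within 0.05 of zero.

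None of the 69 genes lay on chromosome 4 in the gene table of the Release 6 assembly. They were spread over the other arms, with 11 on X, 12 on 2L, 10 on 2R, 17 on 3L and 19 on 3R. The medians were -0.081 on X, -0.052 on 2L, -0.052 on 2R and -0.090 on 3L, and 0.019 on 3R. The value of 3R turned below zero in 6 settings, to -0.046 without the constant for one, and those of X, 2L and 2R turned above zero without *Pof* mutant replicate 1 or without wild type replicate 2. On X, the mutant arrays were the lower ones without overlap for 4 of 11 members (36.4%, against 11.2% of all genes), namely *mRpS30*, *mRpL3*, *mRpL14* and *mRpL38*, the last pair named for this count, and the higher ones for none (against 13.4% of all genes). The arm was picked out after its count was seen and was not tested against the others. *mRpL14*, which faces the small subunit in bacteria, had a change of -0.22 and *mRpL38*, specific to mitochondria, one of -0.18 (adjusted p = 0.303 and 0.301).

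The mitochondrial ribosome also holds proteins whose genes carry other names. *tko*, the fly relative of S12 at the decoding site and known for mutants that are paralysed by shock, had levels of 8.52, 8.73 and 8.70 in *Pof* mutant testes, against 8.62, 8.83 and 8.58 in wild type testes. The genotypes overlapped, with a change of -0.027 (standard error 0.11, adjusted p = 0.925). *bonsai*, named above, was at 8.67, 9.03 and 8.76 on the mutant arrays, against 8.81, 9.12 and 8.90 on the wild type arrays, again with overlap (adjusted p = 0.699).

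Genes that act with the mitochondrial ribosome showed 1 call. Of 9 mitochondrial translation factors measured, 8 passed the minimum, 1 rose and none fell, where 2.47% of all genes were higher and 2.22% lower. The one that rose was *mRRF2*, named as a mitochondrial ribosome recycling factor, with levels of 8.81, 9.03 and 8.60 in *Pof* mutant testes, against 7.78, 8.07 and 7.45 in wild type testes. The lowest mutant array lay above the highest wild type array, and the change was 1.05 with a standard error of 0.19 (limma adjusted p = 0.030, and 0.0034 under the replicate block), a 2.06-fold higher level. Its adjusted p was 0.053 without the constant and lay between 0.056 and 0.130 without any one of the arrays other than wild type replicate 2. *mRRF1*, the other recycling factor, had a value of -0.091 and *mEFTu1*, which brings tRNA to the ribosome, one of -0.31 (adjusted p = 0.176). *mEFTu2*, named for the same factor, had a value of 0.057 at a higher level (11.13 in wild type testes, against 8.84 for *mEFTu1*). *mEFTs*, the exchange factor, had one of 0.055.

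Of 16 genes that charge mitochondrial tRNAs, 9 passed the minimum, and none of them passed the test, with changes between -0.32 (*SerRS-m*) and 0.17 (*TrpRS-m*). Of 14 genes of mitochondrial DNA maintenance and transcription, 12 passed the minimum and none the test. Among them, *PolrMT*, the mitochondrial RNA polymerase, had a value of -0.39 (adjusted p = 0.386), *bsf*, an RNA-binding protein of mitochondria, one of -0.33 (adjusted p = 0.173), and *TFAM*, which packages mitochondrial DNA, one of 0.044. At an unadjusted p under 0.05, limma called 0 of the 9 and 1 of the 12, against 18.5% of all genes.

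The cytosolic ribosome and the respiratory chain, whose proteins work before and after the mitochondrial ribosome, had medians of 0.028 over 41 genes and 0.020 over 75 genes, close to the 0.024 of all genes. Both signs turned without the constant (-0.037 and -0.045) and in other settings, such as with no minimum (-0.013 and -0.019). In each group 1 gene rose and none fell, 1 of 41 and 1 of 75, against 2.47% of all genes higher and 2.22% lower. With the replicate block, 1 cytosolic gene was higher and 1 lower, and 3 genes of oxidative phosphorylation were higher and 4 lower, where 5.82% of all genes were higher and 5.68% lower. The cytosolic gene lower with the block was *RpS10a*, a paralog of a small subunit protein (-0.72, adjusted p = 0.0086 with and 0.079 without the block). The 4 of oxidative phosphorylation were genes of the ATP synthase family, *ATPsynbeta* (-0.75), which lies on chromosome 4, *ATPsynC*, *ATPsynCF6* and *ATPsynbetaL* (-0.34). The genotypes overlapped for *ATPsynbeta* and *ATPsynC*. The other ATP synthase genes of the list were not called with the block, with values between -0.28 (*ATPsyngamma*) and 0.17 (*ATPsynB*). The 3 higher with the block were *COX6AL2*, *UQCR-11L* (0.45) and *Sdhaf3* (0.31). *RpS28a*, a paralog of a cytosolic small subunit protein, was at 9.35, 9.75 and 9.84 on the *Pof* mutant arrays, against 8.71, 8.84 and 8.66 on the wild type arrays, a difference of 0.91 without overlap (limma adjusted p = 0.021). *COX6AL2*, a paralog of a subunit of cytochrome c oxidase, was at 11.48, 11.63 and 11.54 in the mutant, against 10.96, 11.11 and 10.79 in wild type, a difference of 0.60 without overlap (adjusted p = 0.033). The call of *RpS28a* was lost without *Pof* mutant replicates 2 or 3 or wild type replicates 1 or 3 (adjusted p between 0.064 and 0.111) and without both replicate 2 arrays (0.061), and that of *COX6AL2* without any one array other than wild type replicate 2 (0.096 to 0.158) and without the constant (0.066).

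**Figure D4:**
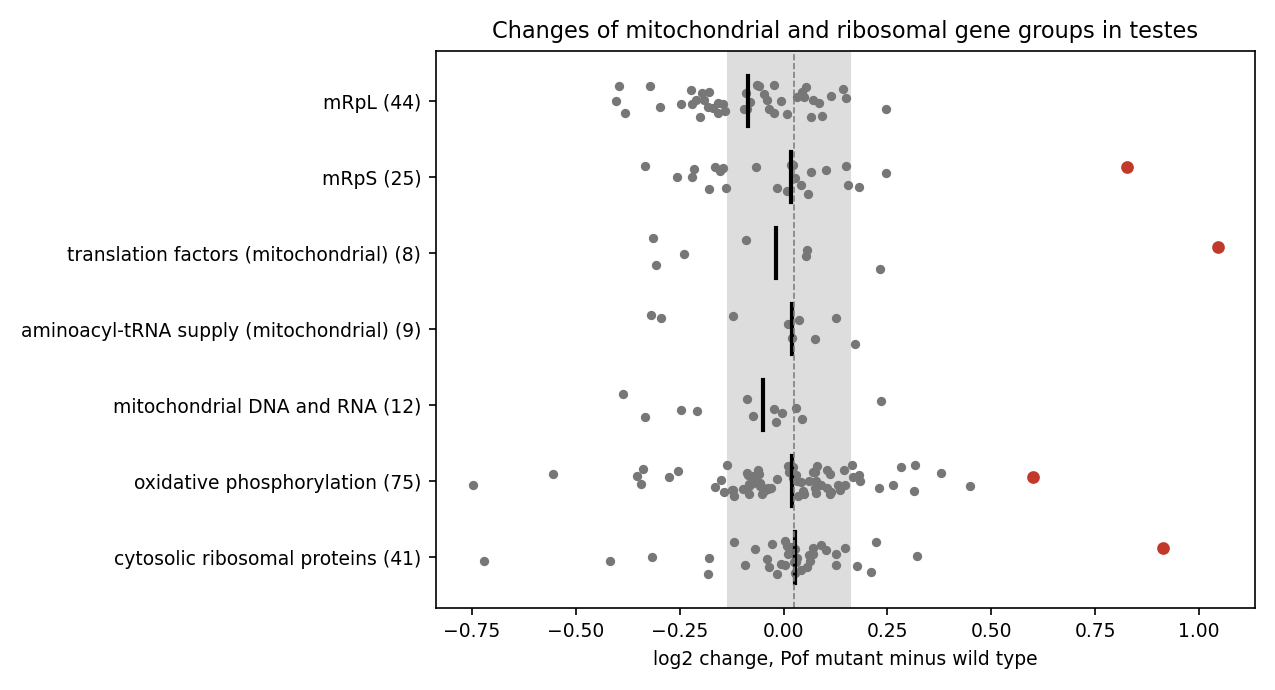
Log2 change (Pof mutant minus wild type, horizontal axis) of each kept gene in 7 groups, with the number of genes in brackets, group medians as black bars and genes past the adjusted threshold in red. The grey band spans the quartiles of all 7696 genes, -0.13 to 0.16, and the dashed line marks their median of 0.024, with the median of the mRpL genes at -0.085 and that of the mRpS genes at 0.019.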

How the data were processed

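Total RNA of 6 samples was measured on Affymetrix *Drosophila* version 2 arrays. The authors deposited log2 values made with RMA (version not given in the sources used here), with neither minimum nor constant applied. RMA can remove a shift shared by most genes. Of 18952 probe sets, 13647 named a single gene, and 13544 of these matched the Release 6 gene table, used for arms and names. Following the paper, 8028 probe sets with a mean of at least 6 in wild type were kept and averaged per gene (7696 genes), and each mutant array was shifted by 1 constant to the wild type mean. Genes were tested in R 4.3.3 with limma 3.58.1 (mutant minus wild type, Benjamini-Hochberg over all kept genes, threshold 0.05). The code of the fit without block was tested on simulated data. These had independent noise on each array, unlike the shared replicate deviations described below, and the block fit was not tested in this way. Plots were made in Python 3.11.15 (matplotlib 3.10.9). The number of arrays limits the precision.

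Deviations from the group means of same-numbered arrays correlated at 0.40, 0.88 and 0.72 over all genes, so the numbers were treated as pairs in a block fit. However, the correlation of mutant replicate 1 was higher with replicate 3 of wild type (0.56), and no source used here names a shared day. Over the members alone, the same-numbered correlations were lower, at 0.22, 0.41 and 0.285. Genes named were those called, the 5 highest and 5 lowest members, members with 2 probe sets, fixed members by place in the ribosome, and up to 4 called genes per accompanying list; others named are values beside them. Minimum, constant, probe set summary, moderation, block and left-out arrays were varied. Members, lists and tests were chosen with earlier results of these data known. Multi-gene probe sets were left out of tests, and no sequences are shown.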

Additional observations from a re-analysis of the deposited data

How the results depend on the processing

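The call of *mRpS6* depended on the constant and on 5 of the 6 arrays. Without the constant, 0 members were higher (*mRpS6* adjusted p = 0.055) and 107 of all genes were. With the replicate number as a block, 2 members were lower, with 448 of all genes higher and 437 lower. Leaving out each array in turn gave 0 to 1 members higher, 59 to 221 of all genes higher and 78 to 182 lower. No member was lower in any of these 6 fits, and the median of the members lay between -0.12 and 0.024. The block changed no other call among the members. Signs turned only for named genes close to zero. With no minimum these were *mRpS11* (-0.016), *mRpL23* (-0.033) and *mRpS7* (-0.035), and with the minimum on all 6 arrays *mRpL23* (-0.0073) and *mRpS7* (-0.0094). Without the constant and with it on the linear scale, they were *mRpS11* (-0.038 and -0.027), *mRpL4* (-0.011 and -7.6e-05), *mRpL23* (-0.056 and -0.044), *mRpS2* (-0.022 and -0.011) and *mRpS7* (-0.058 and -0.046). Without both replicate 2 arrays, they were *mRpL23* (-0.034), *mRpS2* (-0.15), *mRpS7* (-0.018) and *tko* (0.018). Without 1 array, the ranges were -0.087 to 0.18 for *mRpS11*, -0.11 to 0.051 for *mRpL2*, -0.012 to 0.096 for *mRpL4*, -0.076 to 0.096 for *mRpL23*, -0.10 to 0.15 for *mRpS2*, -0.084 to 0.075 for *mRpS7* and -0.079 to 0.061 for *tko*. The causes were not tested. The wild type means of the members were 7.20 or more, against the minimum of 6, and how far background limits their changes was not tested.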

Other observations

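A pair of mitochondrial ribosomal protein genes was measured only by probe sets shared with another gene and was left out above. The probe set of *mRpS10* and *CG34316* had deposited means of 10.19 in *Pof* mutant and 10.05 in wild type testes, a change of 0.20 with the constant, and that of *mRpL53* and *CG33155* had 9.61 and 9.84, a change of -0.16. Neither was tested, and the share of each gene in these values is not known. *mRpL34* and *mRpL37* were not analysed here.

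Of the 8 nearest protein-coding neighbours of *mRpS6* on 3L, in the order of the Release 6 gene table and chosen after its value was seen, 4 passed the minimum and none of these passed the test. Of 4 genes on one side, *Claspin* was below the minimum, *PMP34* had a change of 0.29 (adjusted p = 0.229), *CG15014* one of -0.099 (0.751) and *Cip4*, next to *mRpS6*, one of 0.29 (0.214), all from limma. Of 4 on the other side, 3 were below the minimum and *CG32240* had a change of 0.41 (adjusted p = 0.142).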
